A study of Mus musculus with 31 samples.

Results

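Transcripts of 10 genes for the recognition and engulfment of dying cells were followed through the embryonic mouse olfactory nerve, the olfactory nerve layer and the trigeminal nerve. They were taken as a list of names, with earlier results of these data known. The list held the TAM receptor tyrosine kinases Mertk, Axl and Tyro3, the TAM ligands Gas6 and Pros1 and the large scavenger-type receptors Megf10 and Pear1. It also held the cytoplasmic adaptor Gulp1, the Rac-activating scaffold protein Elmo1 and the integrin ligand Mfge8. All 10 were present among the 47729 genes listed in the count matrix, each on 1 row, and all 10 passed the filter on low counts. Cells that die expose phosphatidylserine on their outer surface, and phagocytes bind it either directly or through bridging proteins. Gas6 and protein S (the product of Pros1) bridge phosphatidylserine to the TAM receptors, Mfge8 bridges it to alpha-v integrins, Megf10 belongs to a receptor family that signals through Gulp1, and Elmo1 works with Dock proteins to switch on Rac and extend the phagocytic cup. Olfactory receptor neurons are replaced throughout life, and olfactory ensheathing cells (OECs), the glia of the olfactory nerve, are known to clear axon debris.

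The study collected 31 RNA-seq libraries from Sox10:Histone2BVenus embryos, a mouse line in which a bacterial artificial chromosome with the Sox10 locus drives a nuclear fluorescent protein in neural crest-derived glia. Fluorescence guided laser microdissection of 8 µm cryosections, and pieces from several sections were pooled for each library. At E16.5 the groups were the olfactory nerve (ON, 4 libraries), the outer olfactory nerve layer (ONL, the part furthest from the bulb, 4 libraries), the inner ONL (the part next to the bulb, 4 libraries) and branches of the trigeminal nerve near the olfactory system (3 libraries), whose glia are Schwann cells. Earlier groups were the ONL at E13.5 (5 libraries) and the ON, taken where it crosses the lamina propria of the nasal mucosa, at E13.5 (7 libraries) and E11.5 (4 libraries). All embryos carried the transgene. Whole pieces of tissue were cut, so the RNA is not that of glia alone. There were more libraries than embryos at E11.5 and E13.5, so some libraries shared an embryo and p-values over libraries are too small there. At every stage p-values measure the spread between libraries only. At E16.5 the trigeminal pieces were cut on the same sections as the olfactory pieces, so groups shared embryos there. The sample labels do not name the embryo of a library, and the main tests took the groups as independent. Library totals ran from 3512627 to 36705535 counts. At E16.5 they ran from 30221586 to 32508725 in the trigeminal nerve and from 13379107 to 16800784 in the other groups. Depth and tissue cannot be told apart in comparisons with the trigeminal nerve.

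The sample titles of 10 of the 16 early libraries place them in another group than the study's own table of mean values does. The libraries titled E11.5 ON replicates 1 to 4 and E13.5 ON replicate 1 made up the E13.5 ONL of that table, E13.5 ON replicates 2 to 7 and E13.5 ONL replicate 1 its E13.5 ON, and E13.5 ONL replicates 2 to 5 its E11.5 ON. The grouping of the table was used, and the values under the titles stand beside the results that change. Under that grouping, totals ran from 24218053 to 36705535 counts in the E11.5 ON and from 5297347 to 16413112 in the E13.5 ON. Depth and stage cannot be told apart between those groups. Npy, a marker of OECs in the nerve layer, reached 166 to 458 CPM (counts scaled to the size of the library) in the 5 libraries of the E13.5 ONL and at most 3.16 in the other 11 early libraries. Markers of the olfactory epithelium summed to between 5.53 and 6.95 CPM in those 5 libraries and to between 36.4 and 180.4 CPM in the rest. Sox10 was detected in every group.

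RefSeq held a promoter for 9 of the 10 genes, and 250 bases before the annotated start are shown for 4 of them because their transcripts fell on opposite sides of the comparisons below: Axl, Pear1 and Pros1 were lower in the inner part of the nerve layer or in the layer as a whole, and Elmo1 went the other way at E13.5. The build is GRCm38.p6 and each sequence reads 5′ to 3′ on the strand of its gene. Capitals mark a GC box (GGGCGG, either strand) or, in Pros1 alone, also a Sox core (ACAAAG, either strand).
Axl: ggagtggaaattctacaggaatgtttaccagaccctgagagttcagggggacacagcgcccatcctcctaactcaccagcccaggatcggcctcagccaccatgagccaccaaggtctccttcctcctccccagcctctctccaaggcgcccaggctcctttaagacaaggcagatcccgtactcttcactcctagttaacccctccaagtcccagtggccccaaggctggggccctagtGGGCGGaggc
Pear1: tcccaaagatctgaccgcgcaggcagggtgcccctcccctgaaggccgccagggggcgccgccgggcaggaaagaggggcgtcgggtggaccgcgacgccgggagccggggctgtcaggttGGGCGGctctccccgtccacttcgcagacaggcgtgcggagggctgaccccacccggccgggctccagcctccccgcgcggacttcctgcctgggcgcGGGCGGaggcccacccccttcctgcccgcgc
Pros1: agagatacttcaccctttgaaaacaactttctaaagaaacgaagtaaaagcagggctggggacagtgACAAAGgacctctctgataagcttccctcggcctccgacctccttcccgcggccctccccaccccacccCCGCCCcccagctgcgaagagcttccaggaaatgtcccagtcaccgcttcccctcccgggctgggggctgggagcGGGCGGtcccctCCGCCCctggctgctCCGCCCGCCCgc
Elmo1: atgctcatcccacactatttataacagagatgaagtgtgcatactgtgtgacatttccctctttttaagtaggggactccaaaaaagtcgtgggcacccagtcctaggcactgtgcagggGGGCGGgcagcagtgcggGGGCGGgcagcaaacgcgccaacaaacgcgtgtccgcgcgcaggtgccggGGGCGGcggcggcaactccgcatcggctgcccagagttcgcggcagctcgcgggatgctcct
They lie at chr7:25788734-25788983 (minus strand), chr3:87768954-87769203 (minus), chr16:62854057-62854306 (plus) and chr13:20090257-20090506 (plus). Axl held 1 GC box, Pear1 2, Elmo1 3 and Pros1 5, of which a pair overlapped. A GC box was found in 9 of the 10 promoters of these genes, all but the downstream start of Elmo1, against 32.7% of the 32851 mouse promoters searched over the same length. The median GC content of the 10 promoters was 62.6%, against 52.4% over all promoters. The Sox core stood in the promoters of 2 genes, Pros1 and the downstream start of Elmo1, and in 16.46% of all promoters. The E-box CACGTG (6.02% of all promoters), the AP-1 element TGANTCA (6.75%) and the Ets element CCGGAAGT (2.88%) were not found in these windows.

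At E16.5 the outer ONL held less transcript of nearly all of these genes than the ON did. In edgeR's quasi-likelihood test, 9 of 10 were lower and none higher, against 25.7% of the 17800 genes tested that were called in either direction (15.4% lower). The median log2 fold change of the 10 was -0.76, and that of all genes -0.05. Pros1 fell furthest (-2.07 ± 0.27 SE, adjusted p = 1.93e-05), followed by Pear1 (-1.30 ± 0.27, adjusted p = 0.00155) and Mertk (-1.11 ± 0.22, adjusted p = 0.00103). Megf10 was the exception at 0.08 ± 0.19 (adjusted p = 0.819). The libraries of the 2 groups did not overlap for Mertk, Tyro3, Pros1, Pear1 and Mfge8 (5 of 10, against 25.4% of all genes tested), and those 5 calls also held with any library left out. Without ON replicate 3 (3871 of 17644 genes called), or without outer ONL replicate 1 (3876 of 17779), only those 5 genes passed.

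Cell type markers moved in the same comparison. Of 17 macrophage markers 14 were lower in the outer ONL, as were 6 of 7 mural cell, 6 of 8 mesenchyme, 4 of 9 endothelium and 5 of 7 olfactory epithelium markers, whereas 5 of 8 glial markers were higher. Neuronal (1 higher and 2 lower of 7) and bulb and forebrain markers (2 and 2 of 10) went both ways. In every comparison here and below, the bulb and forebrain list included Hes5. The paper reports Hes5 in OECs of the nerve layer by in situ hybridization, so that list does not mark bulb tissue alone. Summed over each list, macrophage markers ran from 718 to 1498 CPM in the ON and from 482 to 615 in the outer ONL, mural cell markers from 818 to 2895 and from 303 to 547, and mesenchyme markers from 9552 to 16190 and from 5732 to 11009. No macrophage, mural cell or mesenchyme marker was at or under 3 counts in every library of a group. Their part in the lower levels of the 9 genes was not tested. In pieces of tissue, fewer cells of a type and less RNA per cell cannot be told apart.

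Against the trigeminal nerve, 8 of the 10 genes were lower in the outer ONL and none was higher (31.3% of all genes called, 16.2% lower). Their median was -1.21 and that of all genes 0.00 on the log2 scale. The ON itself differed less from the trigeminal nerve: 3 genes were lower (Axl, Gulp1 and Gas6) and none was higher, with 26.9% of all genes called. Of the markers, 6 of 7 for olfactory epithelium, 7 of 10 for bulb and forebrain and 5 of 7 for neurons were higher in the ON, 4 of 8 for glia were lower and 1 higher, 3 of 7 for mural cells and 3 of 8 for mesenchyme were lower and 1 of each higher, 2 of 17 for macrophages were higher and 1 lower, and none of 9 for endothelium passed. These comparisons share libraries with the one above. Of the markers, 10 of 17 for macrophages, 6 of 9 for endothelium, 6 of 7 for mural cells and 5 of 8 for mesenchyme were lower in the outer ONL than in the trigeminal nerve, 6 of 7 for neurons, 9 of 10 for bulb and forebrain and 1 of 7 for olfactory epithelium were higher, and 3 of 8 for glia were higher and 2 lower. Mesenchyme markers summed to between 23488 and 27627 CPM in the trigeminal nerve. Their part was not tested. Without trigeminal nerve replicate 2 (4717 of 18494 genes called), 5 of the 8 calls against the outer ONL remained and Mertk, Tyro3 and Elmo1 lost theirs. Dividing by the total count in place of TMM factors moved the median log2 difference of all genes between ON and trigeminal nerve from 0.03 to 0.22, and then 5 genes passed, Pros1, Megf10 and Mfge8 higher in the ON and Axl and Gulp1 lower. Of all genes, 5163 of 17800 were called in that fit.

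Within the nerve layer the 10 genes split. The paper states that the inner and outer cuts, made by position, did not part the inner from the outer OEC subpopulation. It also reports olfactory bulb tissue in the inner cut. The values below therefore compare pieces of tissue and not OEC subpopulations. From the outer to the inner ONL, 4 fell (Mertk, Axl, Pear1 and Mfge8), 2 rose (Tyro3 and Elmo1) and 4 did not pass, where 17.7% of all genes were called (7.54% lower, 10.1% higher). The libraries did not overlap for the 6 called genes, against 19.9% of all genes tested. Mesenchyme markers were lower in the inner part for 8 of 8 genes, from a sum of 5732 to 11009 CPM down to 921 to 2168 CPM, and so were 4 of 17 macrophage, 4 of 8 glial, 3 of 9 endothelium, 2 of 7 mural cell and 1 of 7 olfactory epithelium markers. Of the neuronal markers 5 of 7 were higher and 1 lower, and 8 of 10 olfactory bulb and forebrain markers were higher. Their part was not tested. Mfge8 lost its call without outer ONL replicate 3 (or without inner ONL replicate 2), and Pros1 gained one without outer ONL replicate 2, with adjusted p = 0.0272.

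**Figure D1:**
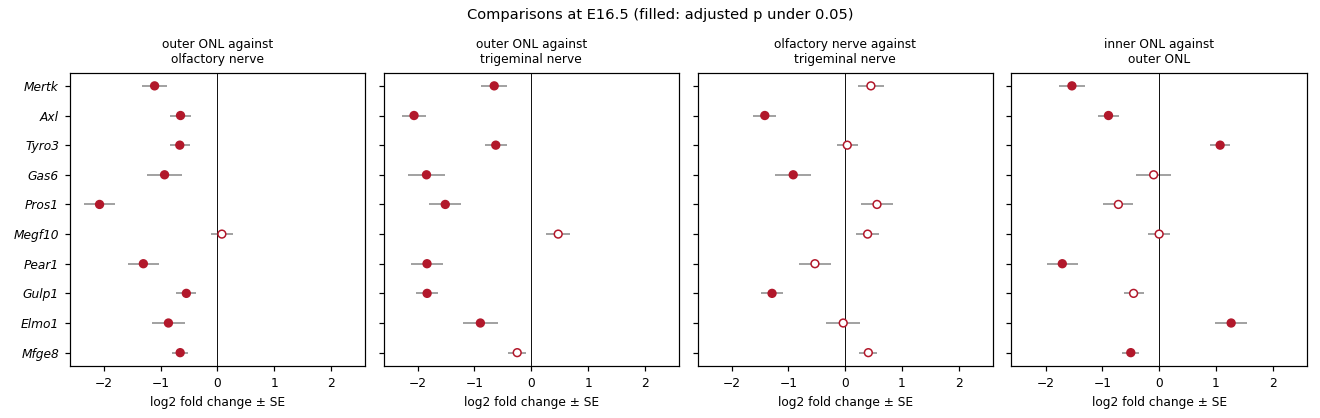
Log2 fold change with its standard error (x axis) for each gene (y axis) in the 4 comparisons at E16.5, filled where edgeR's adjusted p was under 0.05. Megf10 lies near 0 in the first panel, where the other 9 genes lie to the left, and Tyro3 and Elmo1 lie to the right in the last panel, opposite to Mertk, Axl and Pear1.

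The TAM receptors were present in every group, but not in equal measure. Axl (ENSMUSG00000002602, chr7:25757273-25788705, minus strand) encodes the TAM receptor known from mesenchyme, endothelium and activated phagocytes. Its level in the trigeminal nerve was 534, 684 and 575 CPM, above every other library of the series. It was 212, 258, 231 and 159.7 CPM in the ON, 125, 125, 161 and 167 in the outer ONL, and 105, 70.7, 53.1 and 74.7 in the inner ONL. The outer and inner ONL were therefore separate, while the highest outer ONL library stood above the lowest ON library. The log2 fold change from trigeminal nerve to outer ONL was -2.06 ± 0.20 (adjusted p = 6.72e-07), from trigeminal nerve to ON -1.42 ± 0.20 (adjusted p = 5.05e-05), and from outer to inner ONL -0.89 ± 0.19 (adjusted p = 0.00326). Against the ON, the outer ONL was lower by a log2 of -0.65 ± 0.19 (adjusted p = 0.0166), a call lost without ON replicate 3 or outer ONL replicate 1, where its adjusted p reached 0.0695.

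Mertk (ENSMUSG00000014361, chr2:128698956-128802894, plus strand), the receptor that macrophages use to take up dying cells, had its highest level in the ON, with 34.8, 29.4, 41.2 and 30.5 CPM. The outer ONL held 14.7, 14.1, 18.6 and 19.2 CPM and the inner ONL 4.30, 5.49, 4.32 and 8.14 CPM. No library of the inner ONL reached any other library of the series, and the ON and outer ONL did not overlap. The trigeminal nerve held 21.2, 26.5 and 30.1 CPM, above every outer ONL library and overlapping with the ON. From outer to inner ONL the log2 fold change was -1.54 ± 0.23 (adjusted p = 0.000215). The smaller difference between outer ONL and trigeminal nerve, -0.65 ± 0.23 (adjusted p = 0.0383), lost its call in 4 of the 7 fits that left out a library.

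Tyro3 (ENSMUSG00000027298, chr2:119797733-119818104, plus strand), the TAM receptor known best from neurons and brain glia, ran against the other receptors of its family from the outer to the inner ONL, where it rose. It was 36.5, 37.3, 34.1 and 22.6 CPM in the inner ONL and 14.8, 14.1, 15.9 and 18.6 CPM in the outer ONL, which had the lowest mean of all groups. The ON (21.1, 27.6, 23.1 and 23.5 CPM) and the trigeminal nerve (21.6, 25.4 and 25.7 CPM) overlapped. All inner ONL libraries were above all outer ONL libraries, at a log2 fold change of 1.07 ± 0.18 (adjusted p = 0.000534). The outer ONL was lower than the ON by -0.66 ± 0.18 on the log2 scale (adjusted p = 0.0103) and lower than the trigeminal nerve by -0.63 ± 0.19 (adjusted p = 0.0176). The latter call was lost in 2 of 7 fits that left out a library. Over all 7 groups the highest mean of Tyro3 was 2.05 times the lowest, the narrowest range of the 10 genes.

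Scaled per kilobase of exon (FPKM, the scale on which genes can be compared), Axl made up most of the TAM receptor transcript in every library. Its share of the summed FPKM of the receptors was 92.3% ± 0.99 (SD, n = 3) in the trigeminal nerve, 81.7% ± 0.55 (n = 4) in the outer ONL, 78.2% ± 3.07 (n = 4) in the ON and 69.0% ± 6.19 (n = 4) in the inner ONL. Tyro3 took up 24.9% ± 6.54 in the inner ONL but 7.33% ± 0.51 in the outer ONL, and Mertk 14.6% ± 2.58 in the ON against 4.66% ± 0.76 in the trigeminal nerve. The summed FPKM of the receptors was 129 ± 16.1 in the trigeminal nerve, 54.4 ± 8.73 in the ON, 35.1 ± 5.39 in the outer ONL and 21.6 ± 4.51 in the inner ONL. These shares are descriptions and were not tested.

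**Figure D2:**
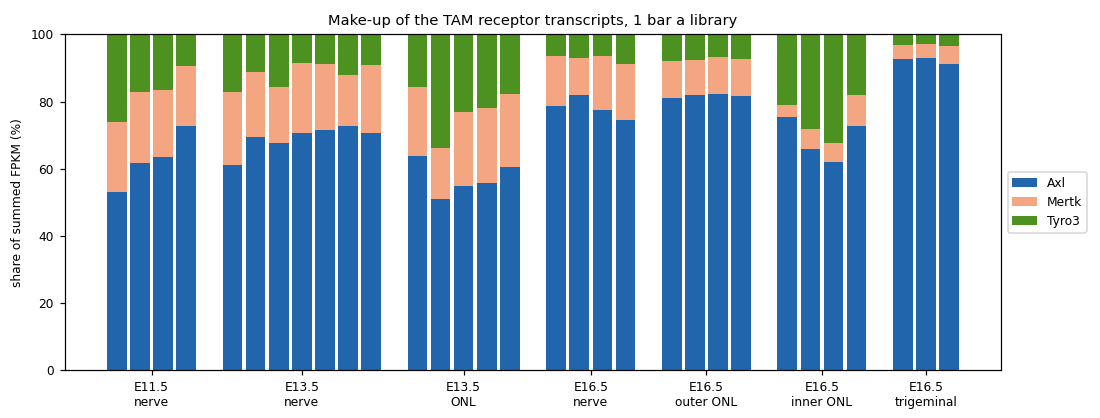
Share of the summed FPKM of Axl, Mertk and Tyro3 (y axis, %) held by each receptor, with 1 bar for each of the 31 libraries in the 7 groups. Axl is the widest band in every bar, and the Tyro3 band is widest in the E13.5 ONL and the E16.5 inner ONL, where it averages 22.4% and 24.9%.

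Both TAM ligands were lower in the outer ONL than in either nerve. Pros1 (ENSMUSG00000022912, chr16:62854307-62929346, plus strand), which encodes the plasma anticoagulant protein S, was 258, 123, 234 and 133 CPM in the ON and 50.9, 29.2, 68.9 and 39.3 CPM in the outer ONL. Replicates 2 and 4 of the ON were well under replicates 1 and 3, yet all stood above every outer ONL library. The trigeminal nerve (129, 156 and 111 CPM) overlapped with the ON, and the inner ONL held 30.5, 27.9, 20.1 and 32.1 CPM. The trigeminal nerve to outer ONL difference was -1.51 ± 0.28 on the log2 scale (adjusted p = 0.000426), the outer to inner ONL difference -0.72 (adjusted p = 0.0715). The mean of the outer ONL was 0.25 times that of the ON.

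Gas6 (ENSMUSG00000031451, chr8:13465374-13494490, minus strand), the ligand of all TAM receptors, was highest in the trigeminal nerve at 43.6, 72.2 and 70.3 CPM. In the ON it was 42.3, 18.6, 37.6 and 27.5 CPM, in the outer ONL 11.51, 10.1, 29.1 and 19.2 CPM, and in the inner ONL 17.2, 14.2, 14.3 and 17.8 CPM. The ON and outer ONL overlapped. The trigeminal nerve to outer ONL difference (-1.84 ± 0.32, adjusted p = 0.000288) kept its call with any library left out. That between ON and outer ONL (-0.93 ± 0.30, adjusted p = 0.0316) lost it in 5 of 8 such fits, and that between trigeminal nerve and ON (-0.92 ± 0.32, adjusted p = 0.0419) in 4 of 7. Inner and outer ONL differed by -0.10 (adjusted p = 0.893). By FPKM, Gas6 made up 21.5% ± 2.40 of the 2 ligands in the ON (n = 4), 36.7% ± 7.48 in the outer ONL (n = 4), 48.2% ± 3.56 in the inner ONL (n = 4) and 42.7% ± 7.57 in the trigeminal nerve (n = 3). Of the exon length of Gas6, 1.33% overlaps Tmem255b on the other strand, and the libraries did not keep strand.

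Mfge8 (ENSMUSG00000030605, chr7:79133768-79149060, minus strand), the secreted bridge to alpha-v integrins, had the highest level per length of the 10 genes in the olfactory tissues of E16.5. It was 59.8 ± 11.7 FPKM in the ON (n = 4), 40.1 ± 3.74 in the outer ONL (n = 4) and 27.6 ± 4.81 in the inner ONL (n = 4). In the trigeminal nerve it was 47.0 ± 3.08 FPKM (n = 3), below Axl (119 ± 15.4) and Gulp1 (64.6 ± 15.6). The CPM values were 254, 360.4, 270.4 and 238 in the ON and 192, 178, 211 and 172 in the outer ONL, without overlap. The inner ONL held 149, 97.4, 139.8 and 132 CPM, again below every outer ONL library. The ON to outer ONL step was -0.65 ± 0.15 on the log2 scale (adjusted p = 0.0028) and the outer to inner step -0.50 ± 0.15 (adjusted p = 0.0237). The trigeminal nerve (206, 235 and 221 CPM) stood below all ON libraries, but neither its difference from the ON (0.41, adjusted p = 0.0664) nor that from the outer ONL (-0.25, adjusted p = 0.251) passed. Of the integrin subunits that bind Mfge8, Itgav was 51.5 ± 6.32 CPM in the ON and 51.5 ± 4.74 in the outer ONL (adjusted p = 0.813), and 221 ± 32.5 in the trigeminal nerve. Itgb5 was 48.6 ± 7.69 CPM in the ON and 15.98 ± 6.19 in the outer ONL (log2 fold change -1.67, adjusted p = 0.00016).

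Megf10 (ENSMUSG00000024593), a receptor of glia and muscle progenitors that astrocytes use to engulf synapses, and Pear1, its relative in vessels, platelets and connective tissue, parted company. Megf10 was 36.6, 33.2, 37.1 and 31.6 CPM in the outer ONL, 37.3, 33.0, 23.1 and 41.0 in the inner ONL, 25.8, 33.7, 39.0 and 25.5 in the ON, and 22.03, 22.01 and 29.8 in the trigeminal nerve. The olfactory groups overlapped. The trigeminal nerve lay below every outer ONL library, at a log2 difference of 0.47 ± 0.21 from trigeminal nerve to outer ONL that did not pass (adjusted p = 0.093). It passed when libraries were divided by total count (0.60, adjusted p = 0.0381).

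Pear1 (ENSMUSG00000028073, chr3:87747890-87824306, minus strand) was 148, 224 and 202 CPM in the trigeminal nerve and 148, 97.3, 174 and 87.4 CPM in the ON, which overlapped. In the outer ONL it was 38.2, 44.5, 78.1 and 55.9 CPM and in the inner ONL 14.3, 17.6, 10.3 and 22.2 CPM. Each of these groups stood below all libraries of the group before it. The log2 steps were -1.84 ± 0.29 from trigeminal nerve to outer ONL (adjusted p = 8.75e-05) and -1.70 ± 0.28 from outer to inner ONL (adjusted p = 0.00045). The highest of its 7 group means was 11.9 times the lowest, the widest range of the 10 genes. By FPKM, Megf10 made up 65.0% ± 3.67 of the pair in the inner ONL, 37.0% ± 7.16 in the outer ONL, 18.4% ± 4.41 in the ON (n = 4 each) and 10.3% ± 2.08 in the trigeminal nerve (n = 3). Of the exon length of Pear1, 4.73% overlaps Lrrc71 on the same strand.

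The intracellular adaptors differed from each other as well. Gulp1 (ENSMUSG00000056870, chr1:44551511-44796838, plus strand), which binds the tails of engulfment receptors, was 302, 241 and 185 CPM in the trigeminal nerve, above all other libraries. It was 107, 92.3, 98.6 and 84.0 CPM in the ON, 65.1, 55.7, 94.7 and 61.1 in the outer ONL, and 42.6, 56.6, 46.1 and 51.0 in the inner ONL. Outer ONL replicate 3 reached into the range of the ON. The log2 fold change from trigeminal nerve to outer ONL was -1.83 ± 0.19 (adjusted p = 1.09e-06) and from trigeminal nerve to ON -1.29 ± 0.19 (adjusted p = 6.11e-05). The smaller ON to outer ONL difference (-0.55 ± 0.18, adjusted p = 0.0294) lost its call in 6 of the 8 fits without a library, with an adjusted p of up to 0.109.

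Elmo1 (ENSMUSG00000041112, chr13:20090596-20608353, plus strand) was 74.2, 65.8, 53.2 and 38.1 CPM in the inner ONL and 17.4, 29.8, 24.4 and 26.3 CPM in the outer ONL, with no overlap. The ON held 52.0, 20.1, 51.5 and 45.7 CPM, where replicate 2 fell among the outer ONL values, and the trigeminal nerve 35.9, 59.9 and 40.0 CPM. The rise from outer to inner ONL was 1.27 ± 0.29 on the log2 scale (adjusted p = 0.00476). The difference between ON and outer ONL (-0.86 ± 0.28, adjusted p = 0.0333) was lost in 6 of 8 fits that left out a library, and it was -0.76 (adjusted p = 0.111) with the replicate number as a block. That between trigeminal nerve and outer ONL (-0.90 ± 0.30, adjusted p = 0.0312) was lost in 3 of 7. Elmo1 shares 3.2% of its exon length with Gm32036 on the other strand.

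**Figure D3:**
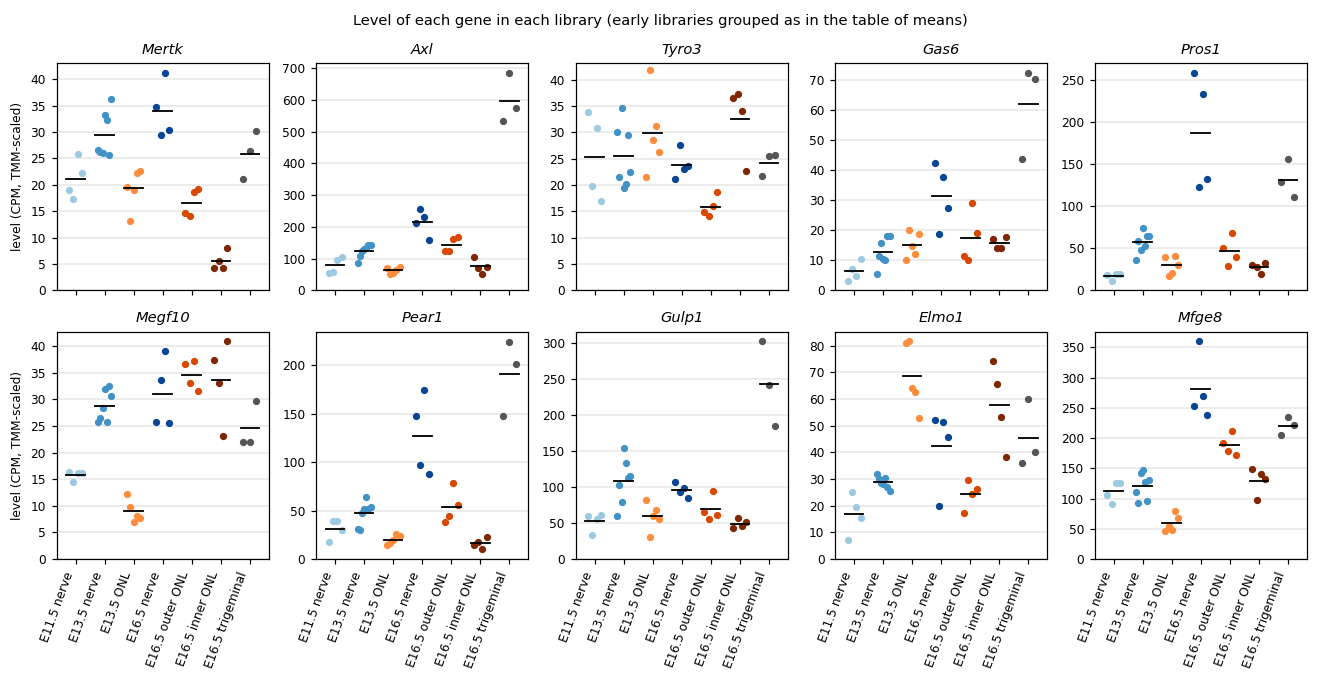
Level of each gene (y axis, CPM scaled by TMM factors, from 0) in each of the 31 libraries, grouped by stage and tissue (x axis), with a bar at each group mean. Axl, Gulp1 and Gas6 peak in the trigeminal nerve, Pros1 and Mfge8 in the E16.5 ON, and Elmo1 in the E13.5 ONL, where Megf10 has its lowest values of 6.96 to 12.2 CPM.

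At E13.5 the ONL already held less of most of these transcripts than the ON of the same stage. Here 7 genes were lower and 1 higher, against 31.5% called among the 19332 genes tested (16.1% lower, 15.4% higher), and the same count of 8 was reached with any library left out. The median of the 10 was -0.91 and that of all genes -0.03 on the log2 scale. Some of these libraries shared an embryo, so the p-values are too small. Under the sample titles only 2 genes passed, both lower (17.7% of all genes called, 8.81% lower), Pros1 at -0.99 (adjusted p = 0.0415) and Elmo1 at -0.83 (adjusted p = 0.0296). None of 17 macrophage markers differed between these groups, and they summed to between 263 and 585 CPM in the ONL and between 231 and 655 CPM in the ON. Of the other lists, 5 of 7 mural cell and 6 of 7 olfactory epithelium markers were lower in the ONL, 5 of 8 mesenchyme markers were lower and 2 higher, 5 of 8 glial markers were higher and 2 lower, 4 of 7 neuronal markers were higher and 1 lower, 3 of 9 endothelium markers were lower, and 8 of 10 bulb and forebrain markers were higher. Mesenchyme markers summed to between 1871 and 3910 CPM in the ONL and to between 3546 and 6416 CPM in the ON. Their part in the result was not tested.

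Megf10 fell furthest at this stage. Its ONL libraries ran from 6.96 to 12.2 CPM with a median of 7.99 (n = 5), and its ON libraries from 25.7 to 32.5 CPM with a median of 28.5 (n = 7). The ranges lay far apart, and the log2 fold change was -1.71 ± 0.16 (adjusted p = 9.62e-10). Elmo1 moved the other way without overlap, from 25.4 to 31.8 CPM in the ON (median 28.5) up to 52.9 to 81.6 CPM in the ONL (median 64.3), a log2 fold change of 1.25 ± 0.23 (adjusted p = 7.73e-05). Mfge8 was 45.9 to 79.5 CPM in the ONL (median 54.0) and 92.0 to 146.6 CPM in the ON (median 127), a fold change of -1.03 ± 0.15 (adjusted p = 2.48e-06) on the log2 scale.

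Axl ran from 51.3 to 72.6 CPM in the E13.5 ONL (median 64.7) and from 87.3 to 144.4 CPM in the ON (median 131), and Pear1 from 14.9 to 25.7 CPM (median 19.2) and from 29.6 to 63.9 CPM (median 51.7). Both were lower in the ONL without overlap, by -0.99 ± 0.18 (adjusted p = 4.86e-05) and -1.23 ± 0.24 (adjusted p = 0.000171) on the log2 scale. Mertk was 13.2 to 22.6 CPM in the ONL (median 19.6) and 25.7 to 36.2 CPM in the ON (median 26.6), also without overlap (-0.61 ± 0.17, adjusted p = 0.00602). Pros1 (-0.95 ± 0.24, adjusted p = 0.00274) and Gulp1 (-0.88 ± 0.21, adjusted p = 0.00181) were lower with overlapping libraries. Gas6, at 10.2 to 20.02 CPM in the ONL and 5.61 to 18.3 CPM in the ON, and Tyro3, at 21.6 to 41.8 and 19.5 to 34.7 CPM, did not pass (adjusted p = 0.586 and 0.381).

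Whether the difference between nerve layer and nerve changed from E13.5 to E16.5 was tested in 1 fit over all 31 libraries. The change passed for 2 of the 10 genes, where 12.3% of all genes passed (5.59% higher, 6.75% lower). For Megf10 it was 1.87 ± 0.24 on the log2 scale (adjusted p = 4.97e-06), from far lower in the ONL at E13.5 to level with the ON at E16.5. For Elmo1 it was -2.04 ± 0.37 (adjusted p = 0.000279), from higher in the ONL at E13.5 to lower in the outer ONL at E16.5. Pros1 (-1.04, adjusted p = 0.0614), Tyro3 (-0.82, adjusted p = 0.0617) and Gas6 (-1.10, adjusted p = 0.127) did not pass. Without outer ONL replicate 3, 4 genes passed (2109 of 19329 genes in all). Under the sample titles none did (12.5% of all genes), and Megf10 stood at 0.60 (adjusted p = 0.334) and Elmo1 at 0.04. The early tissue was one ONL piece, and at E16.5 the layer was cut into outer and inner parts. Elmo1 in the E16.5 inner ONL (38.1 to 74.2 CPM) overlapped with the E13.5 ONL, and Megf10 there (23.1 to 41.0 CPM) did not. In the same test the change was negative for 7 of 10 bulb and forebrain, 2 of 8 mesenchyme and 1 of 17 macrophage markers. It was negative for 5 and positive for 1 of 7 neuronal markers, 2 and 1 of 7 for olfactory epithelium, and positive for 1 of 8 glial markers. Bulb and forebrain markers summed to between 812 and 1118 CPM in the E13.5 ONL and 38.6 and 79.1 CPM in the outer ONL. Their part was not tested.

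Within the nerve, levels were higher at the later stage for most of the 10 genes. From E11.5 to E13.5 7 rose and none fell (36.6% of all genes called, 20.2% higher), with a median of 0.72 against 0.05 for all genes. Pros1 rose most, from 11.0 to 19.8 CPM (E11.5, n = 4, median 18.9) up to 35.9 to 74.4 CPM (E13.5, n = 7, median 59.3), a log2 fold change of 1.74 ± 0.27 (adjusted p = 9.08e-06). Megf10 rose from 14.6 to 16.4 CPM (median 16.2) up to the E13.5 range above (0.86 ± 0.16, adjusted p = 0.000126), and Elmo1 from 7.10 to 25.2 CPM (median 17.4) up to 25.4 to 31.8 CPM (0.78 ± 0.26, adjusted p = 0.0171). The ranges of these 3 genes did not overlap, as was so for 21.2% of all genes tested. Gulp1 (1.04, adjusted p = 0.000755), Gas6 (1.01, adjusted p = 0.0165), Axl (0.66, adjusted p = 0.00592) and Mertk (0.48, adjusted p = 0.0357) rose with overlap. Without the library titled E13.5 ONL replicate 2 (6497 of 19257 genes called), 4 genes passed, and Mertk, Gas6 and Elmo1 did not. Some libraries shared an embryo, which makes these p-values too small. Endothelium markers rose for 9 of 9 genes, and 7 of 8 mesenchyme markers rose and 1 fell. Mural cell (5 of 7), olfactory epithelium (5 of 7) and macrophage markers (5 of 17) rose, 5 of 7 neuronal markers fell and 1 rose, 3 of 8 glial markers rose and 3 fell, and 3 of 10 bulb and forebrain markers rose and 2 fell. Their part was not tested. Under the sample titles 5 genes rose and Elmo1 fell (-1.14, adjusted p = 0.00412), with 17.5% of all genes called (9.31% higher, 8.18% lower). Those that rose were Axl, Megf10, Mertk, Mfge8 (0.97, adjusted p = 0.000736) and Pear1 (1.15, adjusted p = 0.00806). Pros1 (0.83, adjusted p = 0.118), Gulp1 (0.74, adjusted p = 0.074) and Gas6 (-0.15, adjusted p = 0.839) lost their calls.

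From E13.5 to E16.5 in the nerve 5 genes rose and none fell (28.8% of all genes called, 15.2% higher), and the libraries of all 5 did not overlap, against 21.2% of all genes tested. Pros1 rose again by 1.71 ± 0.24 on the log2 scale (adjusted p = 4.81e-06), Pear1 by 1.43 ± 0.24 (adjusted p = 4.42e-05) and Gas6 by 1.29 ± 0.31 (adjusted p = 0.00202). Mfge8, which stood at 0.11 between E11.5 and E13.5 (adjusted p = 0.611), rose by 1.21 ± 0.15 (adjusted p = 6.4e-07), and Axl by 0.79 ± 0.18 (adjusted p = 0.00129). Elmo1 was at 0.56 (adjusted p = 0.0878) and passed without ON replicate 2, at 0.79 (adjusted p = 0.0147). Tyro3 did not pass at either step, at 0.01 and -0.10 (adjusted p = 0.988 and 0.755). Of the markers, 11 of 17 for macrophages, 5 of 8 for glia, 5 of 9 for endothelium, 4 of 7 for mural cells and 2 of 7 for olfactory epithelium rose, 6 of 8 for mesenchyme rose and 2 fell, 1 of 7 for neurons rose and 1 fell, and 3 of 10 for bulb and forebrain fell. Their part was not tested. Both steps share the E13.5 ON libraries.

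In the nerve layer, the E16.5 outer ONL and the E13.5 ONL differed for 7 genes, 5 higher and 2 lower at E16.5 (41.9% of all genes called, 21.9% higher and 20.0% lower). Megf10 was higher by 1.98 ± 0.18 on the log2 scale (adjusted p = 5.55e-10), Mfge8 by 1.67 ± 0.17 (adjusted p = 4.56e-09), Pear1 by 1.43 ± 0.27 (adjusted p = 6.91e-05) and Axl by 1.199 ± 0.20 (adjusted p = 1.15e-05). Elmo1 was lower (-1.48 ± 0.28, adjusted p = 6.96e-05), as was Tyro3 (-0.92 ± 0.22, adjusted p = 0.000991). These 6 genes did not overlap between the groups, against 32.2% of all genes tested. Pros1 (0.67 ± 0.27, adjusted p = 0.0463) overlapped and lost its call in 5 of 9 fits that left out a library. All 7 mural cell markers, 5 of 8 glial, 5 of 9 endothelium and 3 of 7 olfactory epithelium markers were higher in the E16.5 outer ONL, 5 of 8 mesenchyme markers were higher and 1 lower, 9 of 10 bulb and forebrain markers were lower, 5 of 7 neuronal markers were lower and 2 higher, and no macrophage marker passed. Their part was not tested. Under the sample titles 4 genes were higher and 1 lower (6810 of 19332 genes called). Elmo1 (0.41, adjusted p = 0.286), Pear1 (0.60, adjusted p = 0.12) and Pros1 (0.83, adjusted p = 0.0824) lost their calls there. Gas6 gained one (1.01, adjusted p = 0.0435). Megf10 (0.88), Mfge8 (0.70), Axl (0.65) and Tyro3 (-0.64) kept theirs with smaller changes.

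**Figure D4:**
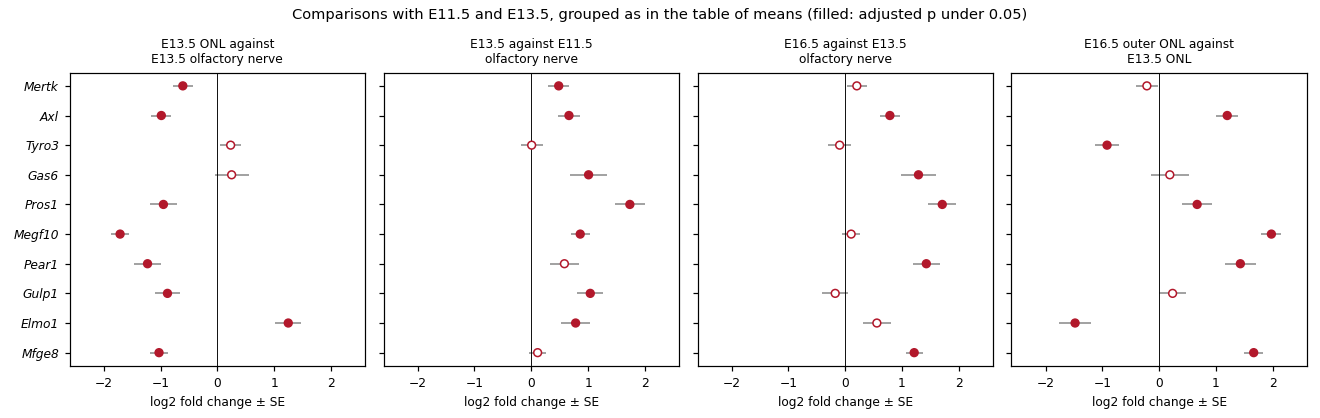
Log2 fold change with its standard error (x axis) for each gene (y axis) in the 4 comparisons that involve E11.5 or E13.5, filled where edgeR's adjusted p was under 0.05, with early libraries grouped as in the table of mean values. Elmo1 and Megf10 lie on opposite sides of 0 in the first panel, at 1.25 and -1.71, and change sides in the last, at -1.48 and 1.98.

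Across all 7 groups, neighbours in the order of mean levels mostly overlapped. Axl and Gas6 had 1 gap, between the trigeminal nerve (598 ± 77.5 and 62.0 ± 15.96 CPM, n = 3) and the E16.5 ON (215 ± 41.5 and 31.5 ± 10.6 CPM, n = 4), and Gulp1 had 1 between the trigeminal nerve (243 ± 58.5 CPM) and the E13.5 ON (108 ± 31.5 CPM, n = 7). Megf10 had its gaps at the foot of the order, where the E11.5 ON (15.9 ± 0.87 CPM, n = 4) stood above the E13.5 ONL (8.95 ± 2.09 CPM, n = 5) and below the rest. Elmo1 had no gap between any neighbours, from 68.5 ± 12.5 CPM in the E13.5 ONL down to 16.7 ± 7.58 CPM in the E11.5 ON. Mertk and Tyro3 each had 1, above the E16.5 inner ONL (5.56 ± 1.80 CPM, n = 4) and the E16.5 outer ONL (15.9 ± 1.98 CPM, n = 4). Mfge8 had gaps below the E16.5 ON, between the E16.5 outer and inner ONL, and above the E13.5 ONL. Pros1 had gaps above the E13.5 ON and above the E11.5 ON, and Pear1 above the E16.5 outer ONL.

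Over the 31 libraries, the log2 level of several genes ran with the summed level of marker genes of other cell types. Pearson's r was 0.95 between Pear1 and mesenchyme markers, 0.90 between Axl and mesenchyme, 0.91 between Pros1 and mural cell markers, 0.83 between Mfge8 and mural cell markers, 0.86 between Gas6 and macrophage markers and 0.80 between Gulp1 and mesenchyme markers. Other lists came close: r with mural cell markers was 0.89 for Pear1 and 0.85 for Axl, and Gas6 had 0.81 with endothelium. With bulb and forebrain markers, a list that included the OEC gene Hes5, r was -0.88 for Axl, -0.83 for Pear1 and -0.81 for Mfge8. These values do not tell the lists apart. With glial markers r lay between -0.19 and 0.33 for 7 genes and was -0.70 for Mertk, -0.37 for Gulp1 and -0.33 for Pear1. Tyro3, Megf10 and Elmo1 stayed between -0.61 and 0.57 with every list. These values describe libraries that share embryos, tissue and stage, and no p is given. Among pairs of the 10 genes, r was 0.91 for Axl and Pear1, 0.84 for Axl and Gulp1, 0.83 for Pros1 and Pear1 and 0.81 for Axl and Pros1, whereas Elmo1 lay between -0.28 and 0.48 with the other 9.

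**Figure D5:**
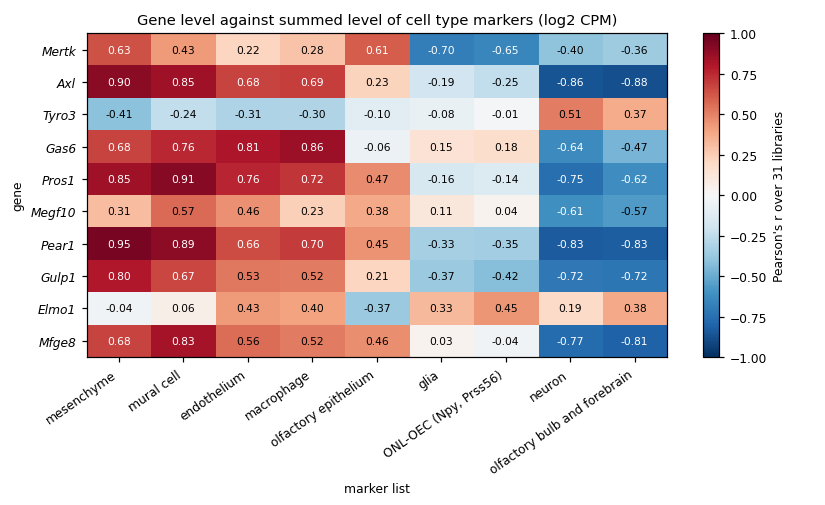
Pearson's r over 31 libraries between the log2 CPM of each gene (y axis) and of the sum of each list of cell type markers (x axis). Axl and Pear1 reach 0.90 and 0.95 with mesenchyme markers, and Tyro3, Megf10 and Elmo1 have no list above 0.57.

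For each of the 10, the genes with the most similar profile over 31 libraries were sought among 19332 genes. For Pear1 the first were Itga5 (r = 0.96) and the collagen chain Col1a2 (r = 0.95), for Axl the lysosomal protease Ctsc (r = 0.95), for Pros1 the lysosomal membrane protein Lamp2 (r = 0.94), for Mfge8 the lysosomal sulfatase Galns (r = 0.94) and for Gulp1 the fibrillin Fbn1 (r = 0.93). For Mertk the first was Dse (r = 0.92), for Gas6 S1pr1 (r = 0.89), for Elmo1 Gpr21 (r = 0.88) and then Kitl (r = 0.87), and for Megf10 Clic6 (r = 0.88). Tyro3 had the weakest, B4galnt1 with r = 0.73.

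Other genes of the same process were read from 4 lists. Of 21 tested receptors and bridging molecules, 2 were higher and 6 lower in the outer ONL than in the ON at E16.5 (25.7% of all genes called), and their median of -0.15 stands beside -0.05 for all genes. Anxa1, a phosphatidylserine-binding annexin, fell from 188 to 658 CPM in the ON to 12.4 to 43.6 CPM (log2 fold change -3.82, adjusted p = 5.03e-06). Thbs1, the thrombospondin that bridges dying cells to CD36 and integrins, fell from 113 to 195 CPM to 2.07 to 29.7 CPM (-3.27, adjusted p = 5.25e-05). Adgrb1, which encodes the phosphatidylserine receptor BAI1 upstream of Elmo1, was 0.83 to 1.05 CPM in the ON and 3.30 to 6.65 CPM in the outer ONL (2.44, adjusted p = 0.000119). It reached 8.95 to 14.6 CPM in the inner ONL (1.197 from outer to inner ONL, adjusted p = 0.0201), where Elmo1 was also higher. From the ON to the outer ONL the 2 genes went opposite ways, with Elmo1 at -0.86. In the trigeminal nerve Adgrb1 had 0 to 3 counts a library, so no fold is given, while Elmo1 was 35.9 to 59.9 CPM there. Scarb1, a scavenger receptor, rose from 122 to 155 CPM in the ON to 201 to 293 CPM in the outer ONL (0.79, adjusted p = 0.000619).

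Against the trigeminal nerve, 4 of the 21 were higher in the outer ONL and 8 lower, where 15.1% of all genes were called higher and 16.2% lower. Cd36, the scavenger receptor of endothelium and phagocytes, was 55.2 to 65.6 CPM in the trigeminal nerve and 2.30 to 6.40 CPM in the outer ONL (log2 fold change -3.90, adjusted p = 2.57e-06). Timd4 and Timd2, receptors of the TIM family, were close to the detection floor of 3 counts in 1 of the 2 groups, at 40 to 137 counts against 2 to 5 in the outer ONL for Timd4 and at 0 to 7 counts in the trigeminal nerve against 7 to 21 for Timd2. At E13.5, 4 of 21 were higher in the ONL than in the ON and 3 lower (15.4% and 16.1% of all genes). Adgrb1 was higher there as well (3.11, adjusted p = 4.97e-08), as was Edil3, a secreted relative of Mfge8, with 82.5 to 208 CPM in the ONL and 11.8 to 34.8 CPM in the ON (2.89, adjusted p = 4.87e-10). Anxa1 (-4.36, adjusted p = 7.58e-08) and Itgb5 (-1.46, adjusted p = 1e-06) were lower.

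Genes of the signalling and digestion machinery were called in both directions. Over all genes, 25.7% were called between outer ONL and ON, 31.3% between outer ONL and trigeminal nerve and 31.5% between ONL and ON at E13.5. Of 15 engulfment signalling genes, 1 was higher and 1 lower in the outer ONL than in the ON (Dock5 at 0.70, adjusted p = 0.0355, and Vav3, a guanine nucleotide exchange factor, at -1.20, adjusted p = 0.00339), 2 and 2 differed from the trigeminal nerve (Elmo3 at 1.24 and Vav3 at 0.85, Trio at -0.80 and Rhog at -0.51), and 2 and 2 between ONL and ON at E13.5 (Dock4 and Trio higher, Elmo3 and Rhog lower). Dock4, a partner of Elmo proteins, was higher in the E13.5 ONL with Elmo1 (1.35, adjusted p = 2.11e-06) and higher in the inner than in the outer ONL (0.78, adjusted p = 0.0222). Of 19 phagosome and lysosome genes, 2 were higher and 2 lower in the outer ONL than in the ON: the lysosomal cholesterol exporter Npc1 (0.78, adjusted p = 0.00179) and Rab14 (0.48, adjusted p = 0.00608), and Lamp2 (-0.63, adjusted p = 0.025) and Map1lc3b (-0.51, adjusted p = 0.00546). Against the trigeminal nerve 1 was higher, again Npc1 (0.73), and 6 were lower, led by Map1lc3a (-1.24) and Rab5a (-0.96). At E13.5, 4 were higher in the ONL than in the ON and 2 lower, with Rab7 and Rubcn at 0.51 each, Lamp2 at -0.73 and Lipa at -0.61.

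Of 8 genes for phosphatidylserine exposure and the CD47 brake on phagocytosis, 2 were higher and 1 lower in the outer ONL than in the ON (25.7% of all genes called), and 2 and 1 again against the trigeminal nerve (31.3%). The higher pair was the same: Sirpa, the inhibitory receptor for CD47, was 52.2 to 83.2 CPM in the ON, 88.9 to 107 CPM in the trigeminal nerve and 272 to 444 CPM in the outer ONL (log2 fold change 2.18 against the ON, adjusted p = 8.96e-08, and 1.76 against the trigeminal nerve, adjusted p = 1.04e-06). Cd47 itself was 97.5 to 123 CPM, 115 to 137 CPM and 208 to 315 CPM in these groups (1.21, adjusted p = 7.83e-06, and 1.16, adjusted p = 2.07e-05). At E13.5, 5 of the 8 were higher in the ONL (15.4% of all genes), with Sirpa at 0.92 (adjusted p = 0.000294), Cd47 at 0.68 (adjusted p = 0.000571) and the scramblase relative Xkr4 at 1.89 (adjusted p = 0.000834), and 1 was lower, Atp11a at -0.58 (adjusted p = 0.0337). The libraries of the outer ONL lay above those of both nerves for Sirpa and Cd47 at E16.5.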

How the data were processed

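The authors aligned paired-end reads (SMART-Seq v4 and Nextera XT libraries, which keep no strand) to mm10 with TopHat2 2.1.0, counted reads per gene with HTSeq and deposited raw counts for 31 libraries. The 1 row of 47730 without a name was dropped. Genes were placed and measured by exon length on GRCm38 (GENCODE). Tests were edgeR 4.0.16 (R 4.3.3) quasi-likelihood tests with TMM factors, a filter by group and Benjamini-Hochberg adjustment over all genes tested, called at 0.05: over the 15 E16.5 libraries for comparisons at E16.5, over all 31 otherwise. Levels are CPM with TMM factors over 31 libraries; FPKM divides them by exon length. The genes and lists were chosen with earlier results of these data known. All 10 genes were named, and from each further list the called genes with the largest rises and falls (Itgav, Itgb5 at E16.5, and Adgrb1 and Dock4 in the inner ONL were added after their values were seen). Correlations of same-numbered ON and outer ONL libraries were 0.145 to 0.299 (4 pairs), and those of differently numbered ones -0.259 to 0.252. The ranges overlapped, so the numbers were not shown to pair the libraries. In each other pair of E16.5 groups the lowest same-numbered correlation was 0.029 or less. The fits were tested on simulated counts with known changes. Alternatives were DESeq2 1.42.0, scaling by total count, filters, the groups compared alone, a replicate block, other groupings and leaving out each library. Some results for single genes of the marker and further lists are not reported here.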

Additional observations from a re-analysis of the deposited data

Results flagged for a closer look

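Megf10 in the E11.5 ON was 14.6 CPM in the library titled E13.5 ONL replicate 3 and 16.2 to 16.4 CPM in the other 3, a gap of 0.892 of the range of the group, past Dixon's limit. Of 60 groups of values tested in this way it was the 1 found, and chance alone picks out about 1 in 20. The difference between nerve layer and nerve changed from E13.5 to E16.5 for Elmo1 (-2.04 on the log2 scale) and for Megf10 (1.87), by a test of the change itself in edgeR. Both values rest on the grouping of early libraries by the study's table of means.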

How the results depend on the processing

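Of 150 counts of genes recomputed under another setting, 137 stayed within 1.5 times the reported count and 13 did not, and of the values of single genes 1233 kept side and direction, 90 lost the call, 31 gained it and 11 changed direction. With 1 library left out the count ranged from 5 to 9 for outer ONL against ON, 5 to 8 for outer ONL against trigeminal nerve, 2 to 3 for ON against trigeminal nerve, 5 to 7 for inner against outer ONL, 8 to 8 for E13.5 ONL against ON, 4 to 8 for E13.5 against E11.5 ON, 5 to 6 for E16.5 against E13.5 ON, 6 to 7 for outer ONL against E13.5 ONL and 2 to 4 for the change of the ONL to ON difference. That change passed for 4 genes with DESeq2, with total count scaling and with a stricter filter alike (Pros1 and Tyro3 added), and for 0 with the early libraries grouped by their titles. Of all genes, 2762 of 19332, 2346 of 19332, 2357 of 14240 and 2423 of 19332 passed in these fits in turn. With all 31 libraries in 1 fit grouped by titles, 4 genes passed for outer ONL against ON (3105 of 19332 genes called). In that fit 5 passed for outer ONL against trigeminal nerve (3922 of 19332). Grouping by titles left 2 calls for E13.5 ONL against ON (3421 of 19332 genes called), and total count scaling gave 5 for ON against trigeminal nerve (5163 of 17800). Under the titles the direction turned, on the log2 scale, for Tyro3 (-0.067), Gas6 (-0.58), Elmo1 (-0.83) and Mfge8 (0.0497) in E13.5 ONL against ON, for Gas6 (-0.15) and Elmo1 (-1.14) in E13.5 against E11.5 ON, for Elmo1 (0.41) in outer ONL against E13.5 ONL, and for Axl (-0.26), Elmo1 (0.0404) and Mfge8 (-0.63) in the change of the difference. Gas6 in outer ONL against E13.5 ONL ranged from -0.17 (without outer ONL replicate 3) to 0.38 with 1 library left out. The cause was not tested. With the replicate number as a block, 8 genes passed for outer ONL against ON (5103 of 16239 genes called), and Elmo1 (-0.76) was the call lost. The block gave 6, 2 and 6 calls for outer ONL against trigeminal nerve, ON against trigeminal nerve and inner against outer ONL. Of all genes, 3283 of 16500, 3100 of 16984 and 2721 of 15717 were called there. Whether the same number means the same embryo is not in the sample labels. Early libraries were not blocked, since their titles and groups differ. Embryos could not be used as a block, and the shallowest library held 3512627 counts.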
